A study of Homo sapiens with 6 samples.

Results

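SLC3A2, SLC7A11 and GLUL encode 2 chains of an amino acid exchanger and an enzyme that makes glutamine. They were taken by name from a table of 1877 genes measured in the human multiple myeloma cell line LP-1, and all 3 named genes were found in it. In 3 libraries a short hairpin RNA had been used against RNF5, a ubiquitin ligase anchored in the membrane of the endoplasmic reticulum, and 3 libraries carried a non-target control. Both groups grew in RPMI-1640 with 15% fetal bovine serum, and the labels give blood as the tissue and tumor cell as the cell type. The sources used here give neither the hairpins, nor the time of harvest, nor whether the 3 libraries of 1 group were grown separately, so p-values measure no more than the spread among these 6 libraries. The table held genes that the authors had marked as changed, with log2 fold changes of 1.0002 or more in size and an adjusted p of at most 0.0499 in the authors' deposited table. The presence of the 3 genes in it, and their direction, are therefore not independent evidence of a change.

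SLC3A2, also called 4F2hc or CD98hc, is a single-pass glycoprotein that carries several transporter light chains to the plasma membrane. Paired with the light chain SLC7A11 (xCT) it forms system xc-, which imports cystine in exchange for glutamate, and cystine is reduced inside the cell to cysteine for glutathione. Paired with other light chains, SLC3A2 takes part in the exchange of glutamine for large neutral amino acids. GLUL, glutamine synthetase, joins glutamate and ammonia to glutamine. Many myeloma cells are known to depend on glutamine uptake, and both SLC3A2 and SLC7A11 are known targets of the stress-induced transcription factor ATF4.

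RNF5 was at 95.40, 81.35 and 88.44 in the knockdown libraries, against 1595, 1649 and 1248 in the control libraries. These and all levels below are normalized abundances on the authors' scale, which is not stated. Whether they are per gene length is not known, so which gene is more abundant is not read from them. The table gives no counts, and its smallest positive value was 0.01 in every library, the rounding unit, so the depth is unknown. Control library 3 was the lowest control in 853 of the 1290 genes that could be tested (66.1%), and knockdown library 1 the lowest of its group in 655 (50.8%). Of 9 plasma cell markers, SDC1 was in the table, at 34.13 to 36.19 in the knockdown libraries and 9.20 to 14.45 in the control libraries. Of 19 markers of other cell types COL1A1 was in the table, below 1 in each library, and the other markers were not analysed here.

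All 3 genes were lower after RNF5 depletion. GLUL was at 29.3% of its control mean, SLC3A2 at 42.5% and SLC7A11 at 48.7%. Each passed limma, a linear model fitted over all 1290 genes on log2(value + 1), at a Benjamini-Hochberg adjusted p under 0.05. In that fit 42.0% of genes fell and 55.7% rose, and 97.7% changed in either direction, as follows from a table of genes chosen for change. The median log2 fold change of all genes tested was 0.73. It was 0.27, 0.16 and 0.23 without knockdown library 1, 2 and 3, when 1129 or 1130 genes passed the filter, and -0.10 over 1874 genes without the filter. The filter, a value of 1 in 3 libraries, was not relaxed when a library was left out. Genes that reached 1 in knockdown libraries alone then could not pass once 1 of these was left out. In bulk RNA, fewer cells with a transcript and less of it per cell cannot be told apart. In an exact 2-sided permutation test each gene had p = 0.1, below which 3 libraries against 3 cannot go.

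**Figure D1:**
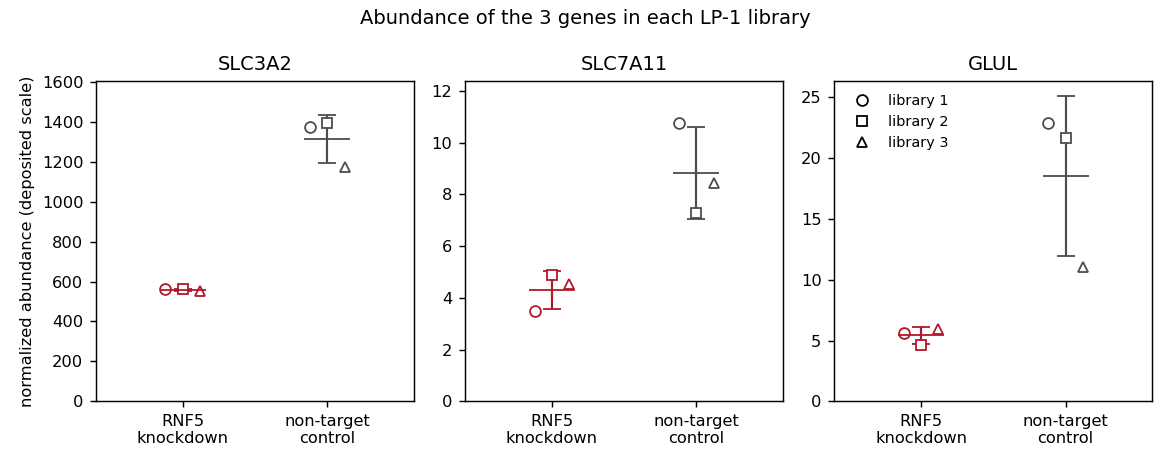
Normalized abundance (y axis, from 0) of SLC3A2, SLC7A11 and GLUL in 3 RNF5 knockdown and 3 non-target control libraries. Symbols mark library 1, 2 and 3, lines the mean and bars the SD (n = 3). The groups do not overlap in any of the 3 genes, and in 40.8% of all tested genes the knockdown values likewise all lay below the control values. GLUL in control library 3 (11.0) lies well below the other controls (22.88 and 21.65).

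SLC3A2 (ENSG00000168003, chromosome 11), the heavy chain, was at 561.72, 562.15 and 551.59 in the knockdown libraries, against 1371, 1394 and 1174 in the control libraries. The knockdown libraries were nearly equal, with a coefficient of variation of 1.07%, against 9.23% in the control libraries. The mean was 558 ± 5.98 after knockdown and 1313 ± 121 in the control (SD, n = 3 each). This was a 2.35-fold fall (log2 fold change -1.23, SE 0.13, limma adjusted p = 1.48e-05). The 3 knockdown values all lay below the 3 control values, as they did in 40.8% of the tested genes. Over the 9 pairs of a knockdown and a control library the control was 2.09 to 2.53 times higher. Among the 542 genes that fell, 110 (20.3%) fell by more on the log2(value + 1) scale. By the authors' log2 fold changes 569 of 953 lower genes (59.7%) fell by more.

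The RefSeq promoter table (GRCh38.p14) lists 3 starts for SLC3A2 and 2 for GLUL, and SLC7A11 was not matched. Windows from 250 bases before to 50 bases after each start were searched on both strands for 4 motifs. These were the antioxidant response element core TGACNNNGC, bound by NRF2, the core of the composite element of ATF4 and CEBP proteins TGATGNAA, the heat shock element core GAANNTTC and the AP-1 element TGANTCA. The first listed SLC3A2 start had TGACTCAGC beginning 37 bases before it and, on the other strand, TGATGTAA within the first 50 transcribed bases. The letters TGACTCA inside TGACTCAGC also match the AP-1 element. The sequences are shown because lists of NRF2 and ATF4 targets are described below. Capitals mark the matches to TGACNNNGC and TGATGNAA, the second one read on the other strand, and the GLUL stretch is given for comparison because it holds neither.
SLC3A2, 250 bases before the start, GRCh38.p14, chr11:62881449-62881698, plus strand: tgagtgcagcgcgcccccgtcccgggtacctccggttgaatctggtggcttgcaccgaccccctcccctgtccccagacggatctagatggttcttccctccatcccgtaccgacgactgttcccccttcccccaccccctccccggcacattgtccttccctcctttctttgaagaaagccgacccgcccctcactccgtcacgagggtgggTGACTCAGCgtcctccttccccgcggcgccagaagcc
SLC3A2, site after the start, GRCh38.p14, chr11:62881724-62881748, plus strand: gtgcaggactccTTACATCAgctcc
GLUL, 250 bases before the first listed start, GRCh38.p14, chr1:182391791-182392040, minus strand: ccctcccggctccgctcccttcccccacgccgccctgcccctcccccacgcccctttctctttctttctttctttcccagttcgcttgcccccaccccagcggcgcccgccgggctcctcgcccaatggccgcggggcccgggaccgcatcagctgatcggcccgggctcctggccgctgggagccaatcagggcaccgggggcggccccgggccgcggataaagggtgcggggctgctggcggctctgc
Of all 35116 listed promoter windows 13.3% held TGACNNNGC, 3.62% TGATGNAA, 6.77% GAANNTTC and 7.71% TGANTCA. The other 2 SLC3A2 starts and both GLUL starts held none of the 4 motifs. Which start LP-1 cells use is not known from these data, and a match of letters does not show that a factor binds there.

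SLC7A11 (ENSG00000151012, chromosome 4), the cystine-carrying light chain, was at 3.49, 4.89 and 4.53 in the knockdown libraries, against 10.77, 7.28 and 8.44 in the control libraries. The 3 knockdown values lay below the 3 control values, as in 40.8% of the tested genes. The gap was small, and the highest knockdown library stood 1.49-fold below the lowest control library. Its mean was 4.30 ± 0.727 after knockdown and 8.83 ± 1.78 in the control (SD, n = 3 each), a 2.05-fold fall. On log2(value + 1) the change was -0.88 (SE 0.21, limma adjusted p = 0.0017), a scale that understates changes at such low levels. Without a pseudocount the log2 ratio of the means was -1.04. Of the falling genes 308 of 542 (56.8%) fell by more than SLC7A11 on the log2(value + 1) scale. By the authors' log2 fold changes 755 of 953 lower genes (79.2%) did. The antisense gene SLC7A11-AS1 overlaps SLC7A11 on the opposite strand and was not analysed here. No source used here says whether counting used the strand, so reads of the pair cannot be told apart.

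GLUL (ENSG00000135821, chromosome 1), glutamine synthetase, was at 5.65, 4.63 and 5.98 in the knockdown libraries, against 22.88, 21.65 and 11.00 in the control libraries. The 3 knockdown values lay below the 3 control values, as in 40.8% of the tested genes. Control library 3 was at 49.4% of the mean of the other controls. SLC3A2 was at 84.9% and SLC7A11 at 93.5% of that mean in the same library. The GLUL mean was 5.42 ± 0.704 after knockdown and 18.5 ± 6.53 in the control (SD, n = 3 each). This was a 3.42-fold fall, a log2 ratio of the means of -1.77 without a pseudocount. On log2(value + 1), which understates changes at low levels, the change was -1.54 (SE 0.26, limma adjusted p = 0.000209). Of the 3 genes GLUL had the greatest fold and also the greatest control spread, with a coefficient of variation of 35.3%. Depending on the pair of libraries, the control was 1.84 to 4.94 times higher. Without control library 3 the log2 fold change was -1.86 (SE 0.14, limma adjusted p = 3.12e-05). Of the falling genes 54 (9.96%) fell by more than GLUL on the log2(value + 1) scale. By the authors' log2 fold changes 455 of 953 lower genes (47.7%) did, so the rank depends on the scale and the set of genes. The processed pseudogenes GLULP3, GLULP4, GLULP5 and GLULP6 were not analysed here, and whether they share reads with GLUL was not tested.

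The authors' deposited table gave log2 fold changes of -1.75 for GLUL, -1.44 for SLC3A2 and -1.19 for SLC7A11. Its adjusted p-values were 8.75e-17 for GLUL, 1.4e-34 for SLC3A2 and 4.07e-12 for SLC7A11, from a test that is not stated. The order by size was the same as in the library values, and the GLUL value was close to its log2 ratio of the means (-1.77). Over 431 genes with both group means of at least 5, the authors' log2 value was below the log2 ratio of the library means, by 0.17 in the median. With the knockdown values divided by that offset the changes in limma were -1.69 for GLUL, -1.40 for SLC3A2 and -1.02 for SLC7A11. Scaling each library by the median ratio over the genes of the table, which lowers the median of all genes tested by 0.43, gave -2.08, -1.85 and -1.40 in the same order of genes. That scaling treats a set of genes chosen for change as the standard, and it moved SLC3A2 and SLC7A11 by more than 1.5 times on the log2 scale.

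**Figure D2:**
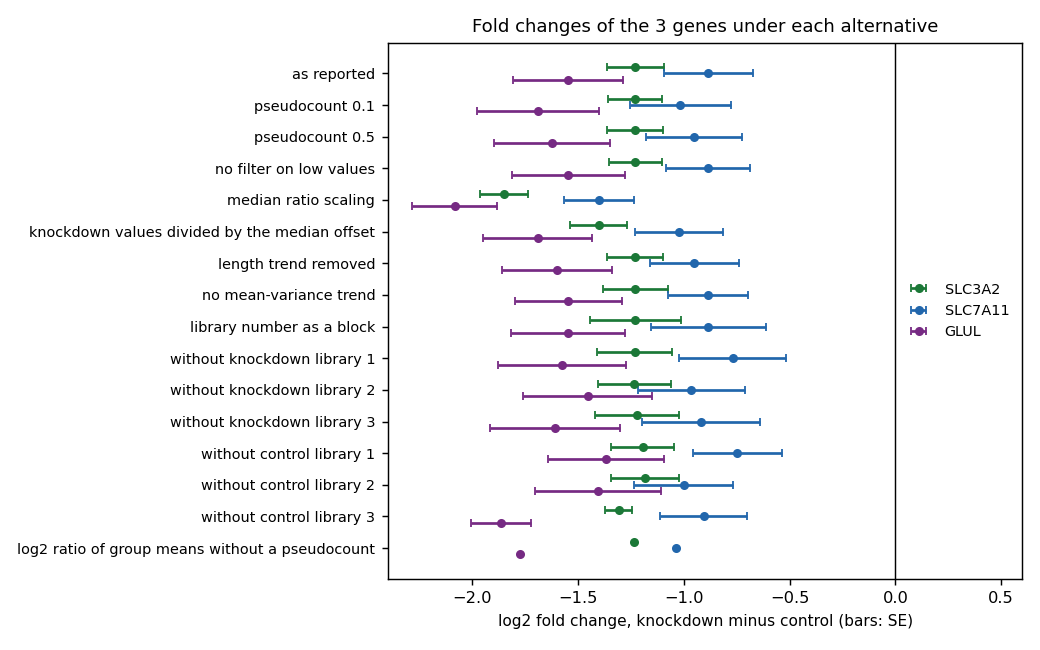
Log2 fold change, RNF5 knockdown minus control (x axis), of SLC3A2, SLC7A11 and GLUL as reported and under 15 alternatives (y axis), with the SE where a limma fit was made. The values lie between -2.08 and -0.75, and no alternative crosses 0.

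Whether the 3 genes fell by different amounts was asked from their log2 ratios within each library, for 3 pairs of genes. For SLC7A11 over SLC3A2, light over heavy chain, the log2 ratio averaged -6.73 ± 0.21 after knockdown and -7.07 ± 0.28 in the control (SD, n = 3 each). These ratios serve to compare the changes of 2 genes and not their levels. The difference of 0.34 (SE 0.20) had an exact 2-sided permutation p of 0.3, and the groups overlapped. For GLUL over SLC3A2 the log2 ratio averaged -6.45 ± 0.17 after knockdown and -6.13 ± 0.42 in the control, a difference of -0.32 (SE 0.26, exact permutation p = 0.3). For GLUL over SLC7A11 it averaged 0.28 ± 0.32 after knockdown and 0.94 ± 0.56 in the control, a difference of -0.66 (SE 0.37, exact permutation p = 0.2). Adjusted over the 3 pairs each exact p was 0.3, and 0.1 is the smallest raw value that 3 against 3 libraries allow. With all 6 libraries the groups overlapped in each of the 3 ratios. Leaving out 1 library moved the differences. Without control library 3 the groups no longer overlapped for GLUL over SLC3A2 (difference -0.56) and for GLUL over SLC7A11 (-0.96). Without knockdown library 1 they no longer overlapped for GLUL over SLC7A11 (-0.80) and for SLC7A11 over SLC3A2 (0.46). In these 4 cases the exact permutation p was 0.2, the smallest that 3 against 2 libraries allow. Without control library 1 the difference for GLUL over SLC3A2 was -0.17, and without control library 2 that for GLUL over SLC7A11 was -0.40 and that for SLC7A11 over SLC3A2 0.18. GLUL had the greatest and SLC7A11 the smallest fall in the reported values and in 15 alternatives, and with 3 libraries a group no test here could call these differences.

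**Figure D3:**
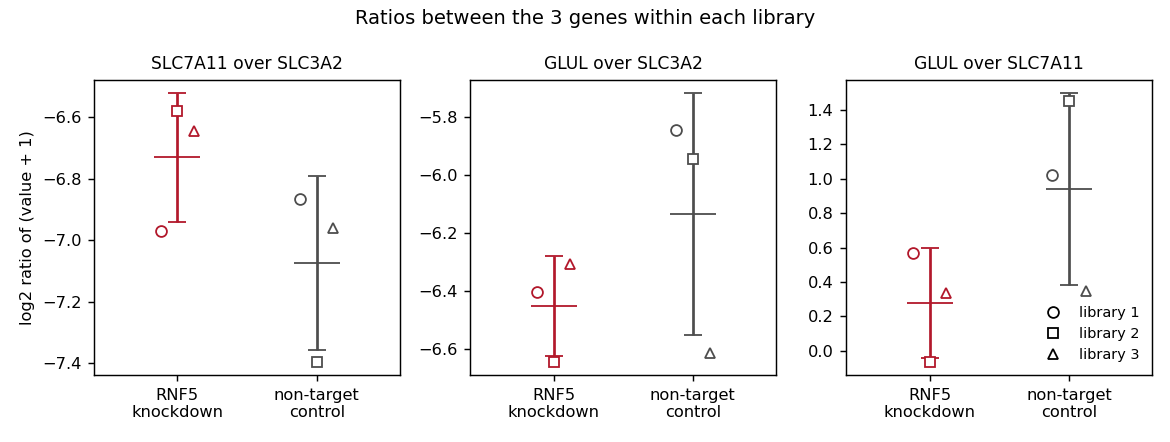
Log2 ratio of (value + 1) between 2 genes within a library (y axis; the axes do not start at 0), for 3 RNF5 knockdown and 3 non-target control libraries. Symbols mark library 1, 2 and 3, lines the mean and bars the SD (n = 3). The groups overlap in each of the 3 pairs of genes.

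The wider pathway was read from 5 lists with 129 genes, of which 12 were in the table and 11 could be tested. Of these 9 fell and 2 rose, with a median log2 fold change of -0.91, against 42.0% lower, 55.7% higher and a median of 0.73 over all genes tested. SLC3A2, SLC7A11 and GLUL are among the 9 that fell. They were chosen with their fall known, so that part of the count was fixed in advance. The lists too were made with earlier results of these data known, and the authors had chosen each gene as changed. The 9 falls against 2 rises are thus no independent evidence. The median over all genes depends on the filter, also when 1 knockdown library is left out, as given above. Without the filter 905 genes rose and 880 fell. The other 117 genes were not analysed here. In 8 of the 11, control library 3 was the lowest control, as it was in 66.1% of all genes tested. The count is thus no trait of these genes, and whether it bears on the size of the falls was not tested. For genes without values here no statement on their level is made.

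Among 10 heavy chains and their partners, SLC3A2 and SLC7A11 were in the table. The other light chains of SLC3A2, among them the large neutral amino acid transporter SLC7A5, were not analysed here. Of 26 other amino acid transporters SLC43A2, which carries large neutral amino acids without a heavy chain, was in the table. It was at 2.58, 2.58 and 0.80 in the knockdown libraries, against 0.79, 0.44 and 0.26 in the control libraries. It was too low to test, and knockdown library 3 lay next to control library 1.

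Among 28 genes of glutamine and glutamate metabolism GLUL fell and GPT rose. GPT, an aminotransferase that moves the amino group of alanine to form glutamate, was at 9.46, 9.82 and 10.18 in the knockdown libraries, against 3.21, 3.18 and 3.61 in the control libraries (limma log2 fold change 1.32, SE 0.18, limma adjusted p = 5.83e-05). The values within each group were close.

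Downstream of cystine, 5 of 45 genes of cysteine and glutathione metabolism were in the table, of which 4 fell and 1 rose (median log2 fold change -0.88), against 42.0% lower and 55.7% higher over all genes tested. GCLM, the modifier subunit of the ligase that starts glutathione synthesis, was at 6.04, 8.71 and 5.71 in the knockdown libraries, against 20.27, 14.14 and 13.26 in the control libraries (limma log2 fold change -1.11). GSR, which regenerates reduced glutathione, was at 45.92, 49.27 and 45.88 in the knockdown libraries, against 147.15, 130.89 and 86.28 in the control libraries (limma log2 fold change -1.32). In both genes the 3 knockdown values lay below the 3 control values, as in 40.8% of the tested genes. Control library 3 was the lowest control in both, as in 66.1% of the tested genes. CTH, which makes cysteine from cystathionine and so offers a source other than cystine uptake, was at 1.39, 2.57 and 2.45 in the knockdown libraries, against 4.50, 4.53 and 3.42 in the control libraries (limma log2 fold change -0.73, limma adjusted p = 0.0058). TXN, the disulfide reductase thioredoxin, was at 126.33, 120.35 and 126.16 in the knockdown libraries, against 191.00, 190.96 and 333.95 in the control libraries (limma log2 fold change -0.88). In TXN control library 3 was the highest control and not the lowest.

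GGT1, the cell surface enzyme that starts the breakdown of extracellular glutathione and so releases its amino acids, went the other way. It was at 77.14, 75.52 and 78.44 in the knockdown libraries, against 36.32, 34.44 and 24.03 in the control libraries (limma log2 fold change 1.28, SE 0.19, limma adjusted p = 8.58e-05). GGT1 thus rose while GCLM, GSR, CTH and TXN fell. Of these 5 genes, GCLM, GGT1, CTH and TXN had promoter windows in the RefSeq table. TGACNNNGC was found in GCLM, which fell, and at 1 of 2 starts of GGT1, which rose. CTH and TXN, which fell, held none of the 4 motifs. Of the regulators described below, which fell, CEBPB held TGACNNNGC at 1 of 2 starts and ATF3 held TGATGNAA at 1 of 2.

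**Figure D4:**
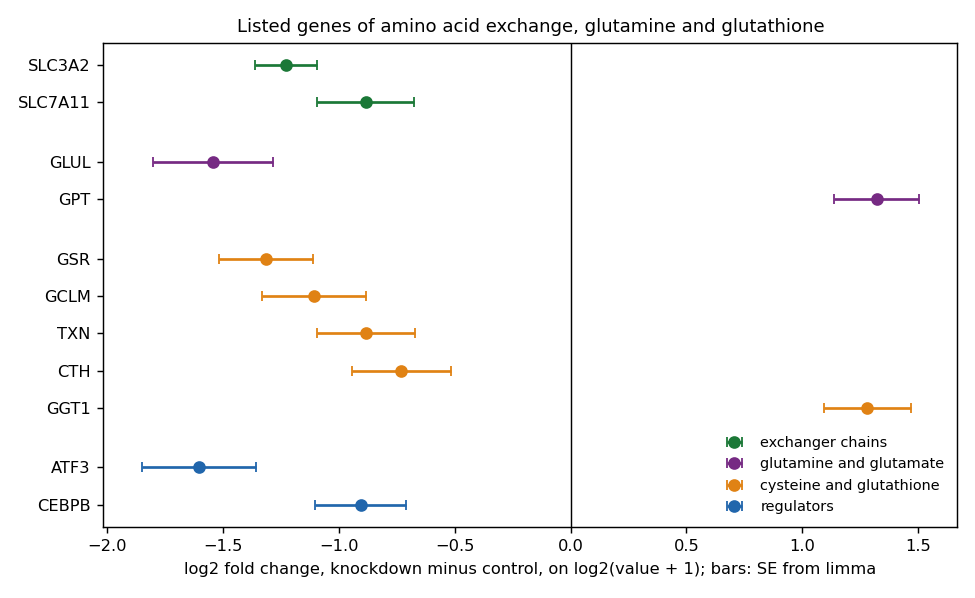
Log2 fold change, RNF5 knockdown minus control, on log2(value + 1) (x axis) with its SE from limma for the 11 tested genes of the pathway and regulator lists, grouped by role. GPT (1.32) and GGT1 (1.28) lie above 0 and the other 9 genes below, with ATF3 (-1.60) and GLUL (-1.54) lowest.

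Regulators of these genes were represented by ATF3 and CEBPB, both stress-responsive transcription factors, out of 20 genes. ATF3 was at 57.30, 58.35 and 48.31 in the knockdown libraries, against 218.45, 202.24 and 106.50 in the control libraries (limma log2 fold change -1.60, limma adjusted p = 0.000115). CEBPB was at 83.58, 59.70 and 71.20 in the knockdown libraries, against 127.14, 168.11 and 111.54 in the control libraries (limma log2 fold change -0.91). Both fell, with the 3 knockdown values below the 3 control values, as in 40.8% of the tested genes. ATF4 and NFE2L2, the gene of NRF2, were not analysed here.

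Of 48 ATF4 targets, 9 were in the table and all 8 that could be tested fell (median log2 fold change -1.0), against 42.0% lower over all genes tested. SLC3A2, ATF3 and CEBPB are described above. DDIT3, a transcription factor of the stress response, was at 173.29, 172.42 and 170.55 in the knockdown libraries, against 339.44, 366.32 and 404.27 in the control libraries (limma log2 fold change -1.10). PPP1R15A, which directs dephosphorylation of the initiation factor eIF2alpha, was at 60.19, 56.28 and 54.66 in the knockdown libraries, against 149.66, 150.84 and 94.96 in the control libraries (limma log2 fold change -1.16). On log2(value + 1) SLC3A2 fell by more, and SLC7A11 by less, than the list's median. That scale understates the fall of SLC7A11, whose log2 ratio of the means without a pseudocount was -1.04. In the authors' own choice of genes such a count cannot serve as independent evidence of a direction.

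Of 37 NRF2 targets, 16 were in the table, all 16 could be tested and all fell (median log2 fold change -1.23, range -2.49 to -0.80), against 42.0% lower over all genes tested. The authors had chosen these genes as well, so the count is no independent evidence. Among the 16, ABCC2 reached the filter value of 1 in control libraries alone, and was at 0.26, 0.51 and 0.21 in the knockdown libraries. Its direction was thus fixed by how it passed the filter. On log2(value + 1) SLC7A11 (-0.88) was near the weak end of that range. The ferritin chains FTL and FTH1, which store iron, fell by log2 fold changes of -1.14 and -1.73. SQSTM1, an autophagy receptor (-0.91), and PRDX1, a peroxidase that uses thioredoxin (-0.85), fell by amounts close to that of SLC7A11. These lists share SLC7A11, and GCLM, GSR and TXN also stand in the glutathione list, so they are not separate groups.

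The listed genes most like each of the 3 were sought among 535 named genes with a mean of at least 5. Likeness was the Euclidean distance between log2(value + 1) profiles over the 6 libraries, each centred on its gene's mean, and is given as a description. Highs and lows that a nearest gene shares with its member follow from this choice and are no separate result. Nearest to SLC3A2 were NQO2 (distance 0.18), CACYBP (0.23), ERICH2 (0.23), ENC1 (0.24) and NR1H3 (0.25). NQO2, a quinone reductase, was at 28.88, 31.42 and 26.74 in the knockdown libraries, against 77.65, 77.07 and 66.03 in the control libraries (limma log2 fold change -1.31). It shared with SLC3A2 a slightly lower control library 3.

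Nearest to SLC7A11 were TWF1 (distance 0.15), MKKS (0.17), COPS2 (0.17), GTF3C3 (0.22) and SGO1 (0.23). TWF1, which encodes the actin-binding protein twinfilin, was at 8.44, 10.94 and 10.23 in the knockdown libraries, against 25.18, 17.67 and 18.52 in the control libraries (limma log2 fold change -0.97). Like SLC7A11 it was lowest in knockdown library 1 and highest in control library 1. COPS2, a subunit of the COP9 signalosome, was at 59.11, 67.84 and 69.92 in the knockdown libraries, against 146.80, 111.31 and 118.36 in the control libraries (limma log2 fold change -0.92).

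Nearest to GLUL were ATF3 (distance 0.42), GNAO1 (0.43), CDC20 (0.46), PER1 (0.47) and GSR (0.48). Their distances were greater than those of the genes nearest to SLC3A2 and SLC7A11. GNAO1, a G protein subunit, was at 2.02, 1.83 and 2.17 in the knockdown libraries, against 9.87, 11.87 and 6.45 in the control libraries (limma log2 fold change -1.76). PER1, a circadian clock gene, was at 8.11, 5.90 and 11.05 in the knockdown libraries, against 30.08, 28.77 and 12.39 in the control libraries (limma log2 fold change -1.34). In all 5 genes control library 3 was the lowest control, as in GLUL and in 66.1% of all genes tested. The 5 were chosen by their likeness to GLUL over these libraries, so this is no separate result.

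The 3 genes were not one another's nearest. From SLC3A2, SLC7A11 ranked 154 and GLUL 186 by likeness. From SLC7A11, SLC3A2 ranked 145 and GLUL 235. From GLUL, SLC3A2 ranked 32 and SLC7A11 187. The SLC3A2 profile was even across the knockdown libraries. That of SLC7A11 was lowest in knockdown library 1, and that of GLUL was lowest in knockdown library 2.

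**Figure D5:**
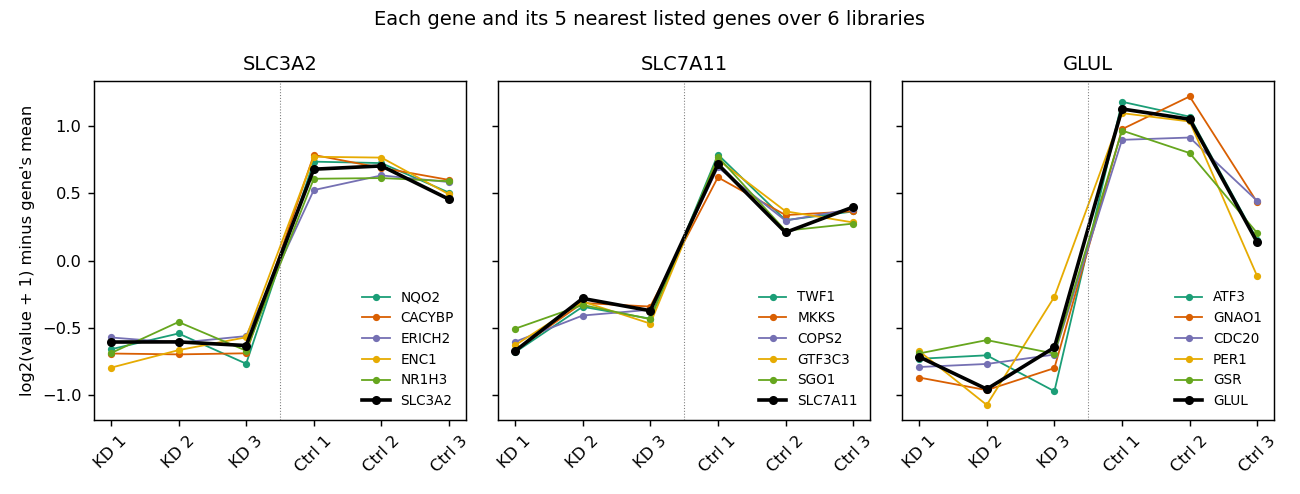
Log2(value + 1) minus the gene's mean over 6 libraries (y axis) for SLC3A2, SLC7A11 and GLUL (black) and the 5 nearest genes of each (colours), in knockdown (KD) and control (Ctrl) libraries 1 to 3. The SLC7A11 group dips in knockdown library 1 and peaks in control library 1, and the GLUL group is lowest among controls in library 3. The genes were chosen by profile over these libraries, so such shared shapes follow from the choice.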

How the data were processed

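RNA of 6 LP-1 libraries was sequenced, 3 with RNF5 knockdown and 3 with a non-target control. Bowtie 0.12.2 and hg19 are named in the submitters' processing notes, which state neither the counter nor the annotation nor the scale. The authors deposited a normalized signal per gene and library, a fold ratio of knockdown over control, its log2 and p-values with their adjusted form. Genes that reached a value of 1 in 3 libraries entered limma 3.58.1 (R 4.3.3, mean-variance trend, group alone, Benjamini-Hochberg adjustment over all genes tested), which kept 1290 and left out 587. The values were log2(value + 1). The fit was tried on simulated data in which most genes were unchanged, unlike in this table. That trial does not show how the fit performs on genes chosen for change. Exact permutation tests used SciPy 1.17.1. Gene lengths came from GENCODE release 29, which matched 1721 genes (91.7%). Members and the 7 lists (185 genes) were chosen with earlier results of these data known.

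Named genes were the 3 members, RNF5, genes in the table from the lists other than ATF4 and NRF2 targets, the 5 of each of these with the highest deposited mean, and for each member the 5 nearest named genes with a mean of at least 5. Which of these nearest genes are described with values was chosen after their values were seen. ABCC2 was named in addition, for how it passed the filter. Markers named in the report were fixed with the lists. Alternatives changed the pseudocount, filter, scaling, length trend, variance trend, block and libraries.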

Additional observations from a re-analysis of the deposited data

How the results depend on the processing

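The falls of SLC3A2, SLC7A11 and GLUL kept their direction and passed the threshold in all 14 alternatives with a limma fit. Most genes tested passed as well in each of these fits, with 1160 of 1267 under median ratio scaling. Passing therefore does not set SLC3A2, SLC7A11 and GLUL apart in a table of genes chosen for change. Largest adjusted p-values were 0.000246 for SLC3A2, 0.00987 for SLC7A11 and 0.00166 for GLUL. Leaving out 1 library gave log2 fold changes of -1.31 to -1.18 for SLC3A2, -1.0 to -0.75 for SLC7A11 and -1.86 to -1.37 for GLUL. With the length trend removed they were -1.23, -0.95 and -1.60. The counts of changed genes were 1076 to 1161 with 1 library left out, when 1129 to 1188 genes were tested. They were 1260 of 1290 as reported and 1785 of 1874 without the filter. The counts thus move with the number of genes tested. Under median ratio scaling 568 genes rose and 592 fell of 1267 tested, against 718 and 542 of 1290. List genes changed numbered 25 to 27 over the alternatives, against 26 of 26 tested as reported. How many list genes were tested in each alternative is not given here. The differences between members ranged from 0.18 to 0.46 for SLC7A11 minus SLC3A2, -0.56 to -0.17 for GLUL minus SLC3A2 and -0.96 to -0.40 for GLUL minus SLC7A11, and none changed sign. The log2 ratio of means and the ratios without a pseudocount were added after the data were seen. Library numbers did not pair the samples (correlations of deviations -0.16, -0.07 and -0.08), and 0 of 6 libraries correlated best with their own number. With the replicate block 1272 of 1290 genes changed. The members' log2 fold changes were as reported, with SE 0.22 for SLC3A2, 0.27 for SLC7A11 and 0.27 for GLUL. Depth is unknown, so how far counting error limits the low values of SLC7A11 cannot be given.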
